A study of Mus musculus with 22 samples.

Results

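The RET receptor tyrosine kinase and the GDNF family that activates it were followed through mRNA libraries of mouse pancreatic cancer with and without microRNA-21. The 7 genes described are Ret, the ligands Gdnf, Nrtn and Artn, and the co-receptors Gfra1, Gfra2 and Gfra3, of 53342 genes in the count tables. They were chosen by the KO minus WT values of Ret, because that difference had opposite signs in cell lines and in tumors, so their knockout values below are a description and carry no test. There were 22 libraries of Bl6 mice from a KPC tumor model (per the labels, with recombined K-Ras and p53 alleles), and no animal or line was treated: 5 lines and 8 whole tumors labelled miR21 KO, and 5 lines and 4 whole tumors labelled WT, which are of the same KPC model. Each line was grown out of a tumor through at least 8 passages so that fibroblasts were lost, was used between passages 10 and 14 in 5% serum, and is 1 line of 1 animal, whereas a tumor library holds RNA of every cell in the piece taken. The titles name 17 animals, of which 5 gave a line and a tumor. Replicate numbers here follow the order of deposition and pair nothing. The labels give neither the age of the animals nor the promoter driving recombination.

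RET is a receptor that spans the membrane of neurons, neural crest cells and some epithelia. GDNF, neurturin (Nrtn) and artemin (Artn) do not bind it alone: each first binds a GFRA protein anchored on the cell surface by a lipid, GFRA1 for GDNF, GFRA2 for neurturin and GFRA3 for artemin, and the pair then brings RET molecules together so that their kinases switch on. In the pancreas the system is known for guiding nerves and for the growth of cancer cells along them, in which GDNF or artemin from nerves and glia meets RET on the tumor cell.

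MicroRNA-21 lowers mRNAs that pair with its seed, bases 2 to 8, and that seed is shown in capitals because it sets which of these genes it could pair with. The mature RNA is from RefSeq (GRCm38.p6, chr11:86584120-86584141, minus strand).
mmu-miR-21a-5p: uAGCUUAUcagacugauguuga
None of the 7 genes held the matching 7-mer ATAAGCT, or TAAGCTA, on the sense strand of any 3′ UTR annotated in GENCODE vM21. In all, 11.2% of 20897 genes with a 3′ UTR held one of them in the longest UTR. UTR length matters here, and among genes with a UTR about as long as that of Ret (2108 bases) the share was 16.7% and for Gfra1 (2787 bases) 21.7%. The absence of these letters says nothing about other ways by which the microRNA could reach a gene. Several relays downstream of RET did hold a match. The strongest kind, the 8-mer that adds an A, stood in Frs2, an adaptor that docks on active RET, and in Spry1, an inhibitor that RET signalling switches on in the ureteric bud. The axon guidance genes Slit2 and Plxna2 also held an 8-mer. Among genes with a UTR about as long, 34.2% held a match for Frs2 (4502 bases) and 7.03% for Spry1 (1047 bases). For the relays with a match this share ran from 22.7% (Grb10) to 53.6% (Dok6), and an excess of sites was not tested. The sites of Frs2 and Spry1 are printed with 10 bases on each side and the match in capitals, and these 2 genes were named for their site after their values were seen.
Frs2 site, chr10:117069758-117069765, minus strand: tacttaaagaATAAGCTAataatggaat
Spry1 site, chr3:37643873-37643880, plus strand: aagtgcttaaATAAGCTAtatattaatc
Neither passed the test between genotypes. Frs2 differed by -0.15 ± 0.15 (log2 fold change ± SE, KO minus WT, edgeR adjusted p = 0.821) in lines and by 0.03 ± 0.15 (adjusted p = 0.938) in tumors. Spry1 differed by 0.63 ± 0.25 (edgeR adjusted p = 0.713) in lines and by 0.68 ± 0.26 (adjusted p = 0.231) in tumors.

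Library totals ran from 24547650 to 31118113 counts. Levels are given as CPM, the usual scaling of counts to library total, here with TMM factors, and a count of 0 allows up to 0.0914 to 0.134 CPM depending on the library (3 counts on the same scale, counting error only). Mir21a had 0 counts in 22 of 22 libraries, so its mRNA-library count checks no label. Lines kept ductal epithelial markers (12 of 12 detected, summed at 8632 to 15740 CPM) and had nearly none of fibroblasts (2.27 to 16.9 CPM, against 1982 to 12777 CPM in tumors). Of the 11 Schwann cell markers, 3 were at 0 in WT lines and 4 in KO lines, the glial factor Sox10 among them. The list still summed to 109 to 219 CPM in WT lines and to 156 to 269 CPM in KO lines. Its most abundant markers over the groups were Erbb3 and Mbp, so this sum is not a measure of glia alone. Some libraries stood apart: KO tumor 6 had the highest summed neuron list of any tumor (343 CPM, others 25.1 to 128) and the lowest Schwann cell list (123 CPM, others 298 to 427), and WT tumor 3 carried the highest skeletal muscle list (1308 CPM). For Gdnf, Artn and Gfra2, which were highest in KO tumor 6, values are given with and without it.

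Ret, the signalling receptor (ENSMUSG00000030110.13, chr6:118151745-118197718, mm10, minus strand), had the smallest adjusted p of the 6 members tested between tumors and lines. In WT lines it stood at 1.22, 1.26, 1.53, 1.04 and 1.08 CPM, and in KO lines at 2.72, 5.81, 3.41, 2.49 and 2.27 CPM. WT tumors had 48.7, 16.7, 60.2 and 56.1 CPM, and the 8 KO tumors ran from 4.8 to 29.2 CPM with a median of 19.9. Of the 12 tumors, 11 lay above the highest line, and the exception was KO tumor 2 at 4.8 CPM. The mean of tumors (28.2 ± 17.7, SD, n = 12) was 12.3 times that of lines (2.28 ± 1.48, n = 10). In the fit over all 22 libraries with both genotypes weighted equally, Ret rose by 3.88 ± 0.30 in tumors (log2, edgeR adjusted p = 2.02e-09). This contrast does not depend on the sign of the knockout effect. The background is broad, since 65.5% of 18662 genes tested were called in it and 38.5% were called higher in tumors. In whole tissue, fewer cells of a type and less RNA per cell cannot be told apart.

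**Figure D1:**
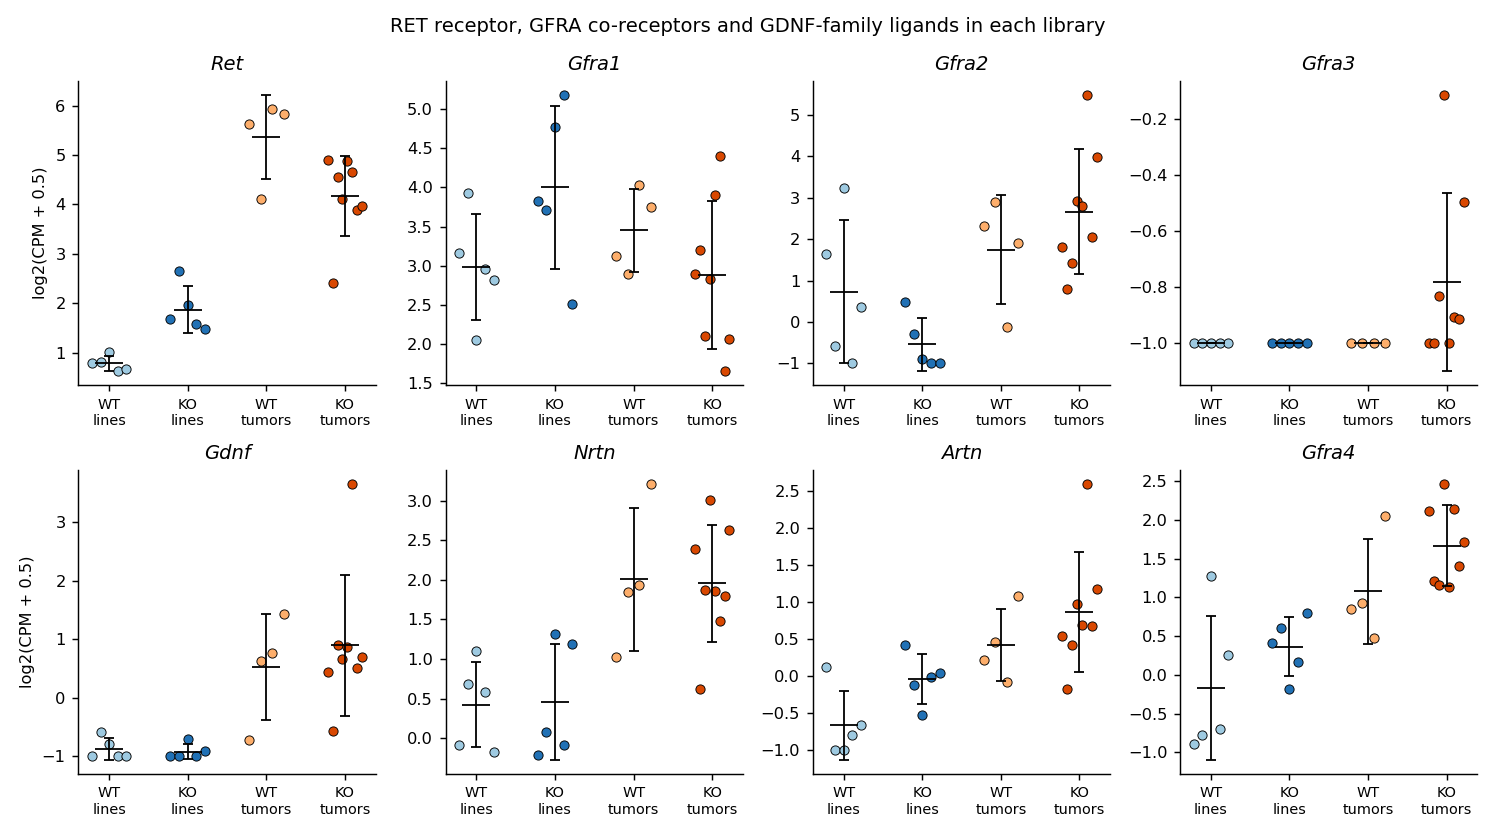
Each point is 1 library on log2(CPM + 0.5) for 7 family genes and Gfra4, by genotype and material; bars are the mean ± SD on that scale. Ret sits at 1.04 to 5.81 CPM in lines and at 4.8 to 60.2 CPM in tumors, while Gfra1 overlaps in all 4 groups and Gfra3 was counted in 5 KO tumors only.

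The 4 groups ordered by mean Ret as WT lines (1.23 ± 0.193 CPM), KO lines (3.34 ± 1.45), KO tumors (19.6 ± 8.38) and WT tumors (45.4 ± 19.7). Each step was larger than the larger SD of its 2 groups, though only the first was free of overlap. The knockout difference therefore pointed up in lines and down in tumors, which is what chose the gene. All 5 KO lines lay above all 5 WT lines, a layout that 0.742% of 14020 genes shared. In tumors 3 of 4 WT libraries lay above all 8 KO tumors, and WT tumor 2 (16.7 CPM) lay among them. The means differed 2.72-fold in lines, KO over WT, and the KO mean was 0.431 of the WT mean in tumors. On the log2 scale the differences were 1.44 ± 0.33 in lines, -1.26 ± 0.41 in tumors and -2.66 ± 0.54 between them. Without WT tumor 2 the tumor value was -1.54, and without KO tumor 2 it was -1.11.

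Opposite signs of this kind were not rare among all genes: 21.1% of 13818 genes tested in both materials were higher in KO lines and lower in KO tumors. Past 1 on the log2 scale in both, the share was 0.195%, 27 genes. edgeR called 2 of 14020 genes between genotypes in lines (0.0143%), 2 of 18125 in tumors (0.011%) and 0 of 18662 for the difference between materials (0%), where 981 genes higher and 559 lower had an unadjusted p under 0.05, DESeq2 called 67 and limma-voom 0. The calls in lines and in tumors were genes outside the family.

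**Figure D2:**
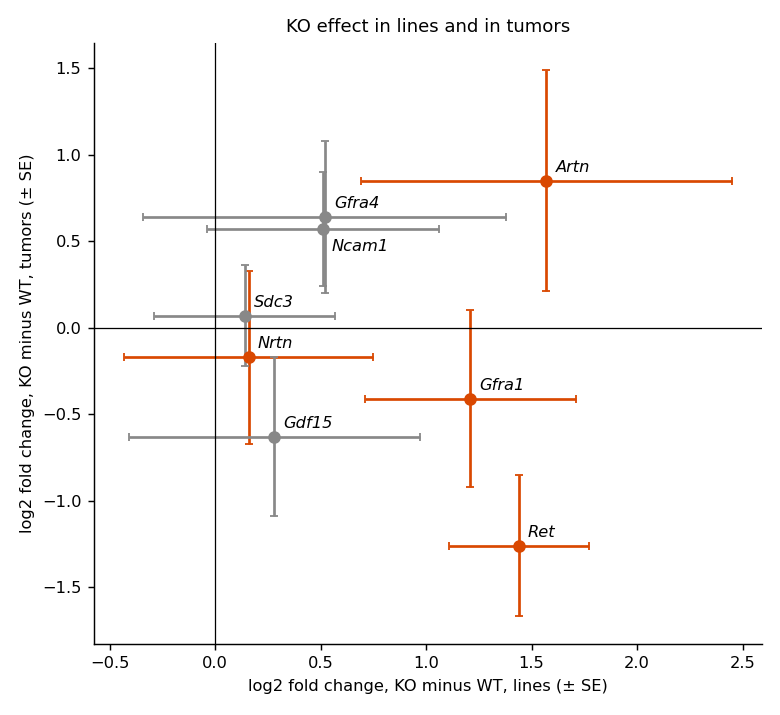
Log2 fold changes of KO minus WT in lines (horizontal) and in tumors (vertical), each ± SE, for the 4 members tested in both (orange) and 4 other genes of the family's signalling (grey). Ret lies at 1.44 and -1.26, positive in lines and negative in tumors, beside Gfra1 at 1.21 and -0.41.

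Medians of some marker lists lay apart between KO and WT tumors, while the ranges of the lists given here overlapped. For the ductal list the ranges were 4393 to 9421 CPM in KO tumors and 7461 to 14971 CPM in WT tumors. edgeR called 0 of the tested markers of these lists between genotypes in tumors. The ductal list summed to a median of 7220 CPM in KO tumors and 11501 in WT tumors, the islet list to 77 and 9.04 CPM, the acinar list to 288 and 26.3, the skeletal muscle list to 3.79 and 27.3, and the Schwann cell list to 393 and 374. With the mean of the ductal list as a covariate, the Ret difference in tumors was -1.01 ± 0.48, and with the acinar list it was -1.32 ± 0.48. Over the 12 tumors Ret varied with the ductal list at r = 0.59 (permutation p = 0.045, adjusted p = 0.228 over 91 relations) and rho = 0.66 (adjusted p = 0.245). Leaving out the 2 tumors farthest from the median of that list gave r = 0.66, and within the 8 KO tumors r was 0.40. Without KO tumor 6 the pooled r was 0.79 (permutation test, adjusted p = 0.0469). No other removal of a single tumor gave an adjusted p under 0.05 for Ret with the ductal list. With the skeletal muscle list Ret had r = 0.59 (permutation p = 0.0615, adjusted p = 0.295) and rho = 0.67 (permutation p = 0.0204, adjusted p = 0.245), with r = 0.41 without the 2 farthest tumors and 0.58 within KO tumors. Without WT tumor 3, where that list summed to 1308 CPM, the Ret difference in tumors was -1.08 ± 0.46. With the Schwann cell list Ret had r = -0.14 and rho = -0.15 (permutation p = 0.667, adjusted p = 0.799), with r = -0.10 without the 2 farthest tumors and 0.09 within KO tumors. With the neuron list it had r = 0.17 and rho = 0.17 (permutation p = 0.588, adjusted p = 0.756), with r = 0.54 without the 2 farthest tumors and 0.81 within KO tumors. The part of tumor make-up in the difference was not tested beyond these values.

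The 5 animals with both materials gave the comparison within an animal. Ret went from 1.22 CPM in the line to 48.7 in the tumor of KPC190, from 1.26 to 16.7 in KPC202 and from 1.04 to 60.2 in KPC232, all WT. In the KO animals it went from 2.27 to 22.9 CPM in KPC2157 and from 2.72 to 4.8 in KPC21171. Every tumor was above its own line, by 1.76 times in KPC21171 and by 57.9 times in KPC232. The tumor was also higher in 5 of 5 animals for Gdnf, Nrtn, Gfra2 and Gfra4, in 4 of 5 for Artn and in 1 of 5 for Gfra1. For Gdnf in KPC190 the line had 0 counts and the tumor 3 (0.105 CPM), within what a count of 0 allows. The share of all genes with such a layout was not computed, and 38.5% were called higher in tumors in the fit.

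**Figure D3:**
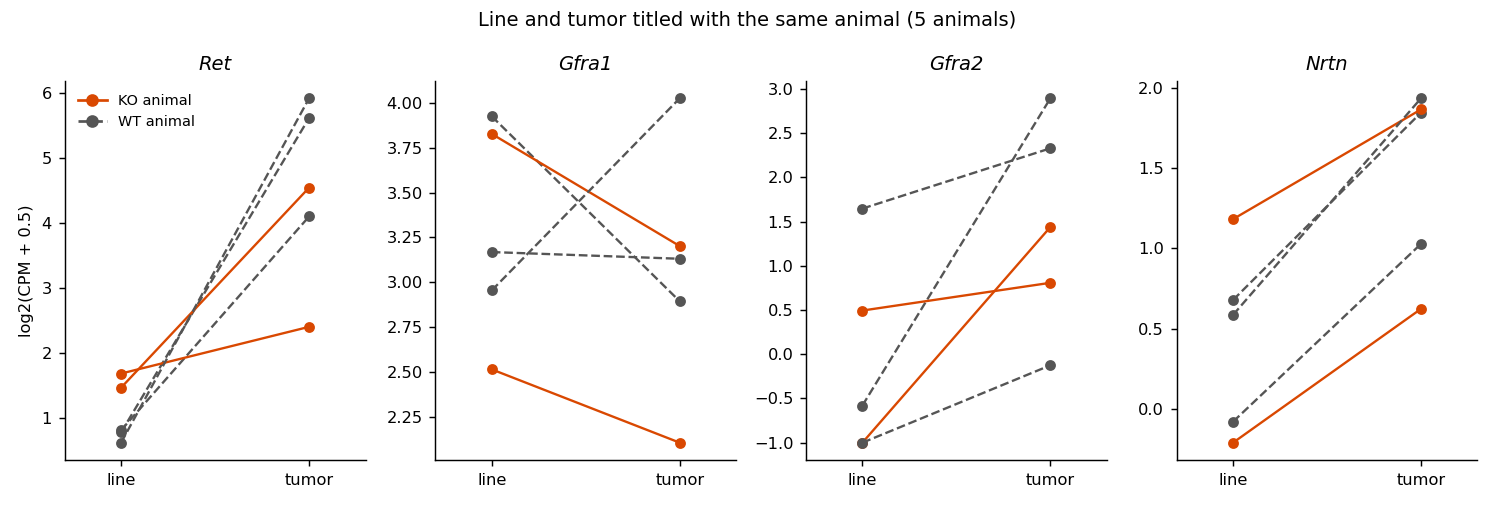
Lines join the cell line and the tumor of 1 animal on log2(CPM + 0.5), solid for 2 KO and dashed for 3 WT animals. Ret climbs in 5 of 5 animals, least in KPC21171 (2.72 to 4.8 CPM), whereas Gfra1 is higher in the tumor of 1 of 5.

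Among the co-receptors, Gfra1, the partner of GDNF (ENSMUSG00000025089.15, chr19:58235604-58455909, minus strand), was the 1 tested member that did not pass between materials. It stood at 8.49, 14.7, 3.66, 7.25 and 6.56 CPM in WT lines and at 13.7, 12.6, 26.7, 35.8 and 5.21 CPM in KO lines. WT tumors had 8.26, 6.93, 15.8 and 13 CPM, and KO tumors 2.65 to 20.7 with a median of 6.78. All 4 groups overlapped. The fit gave -0.36 ± 0.38 for tumors minus lines (edgeR adjusted p = 0.414). The knockout values, as a description, were 1.21 ± 0.50 in lines and -0.41 ± 0.51 in tumors, the same pair of signs as for Ret. The tumor value was less than 1 SE from 0, and 21.1% of 13818 genes tested in both materials had this pair of signs. An antisense gene, Gm16277, shares 416 exon bases with Gfra1 and had 3 counts in all libraries together against 6679 for Gfra1.

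Gfra2, the partner of neurturin (ENSMUSG00000022103.10, chr14:70890120-70979838, plus strand), was uneven between libraries. WT lines had 2.63, 0.169, 8.93, 0 and 0.777 CPM, and KO lines 0.908, 0.315, 0.0383, 0 and 0. WT tumors had 4.52, 6.93, 0.417 and 3.24 CPM, and KO tumors 1.25 to 44.4 with a median of 5.06. WT line 3 was above 10 of the 12 tumors, and KO tumor 6 alone held 1333 of the 2905 tumor counts. Gfra2 rose by 2.96 ± 0.92 in tumors (edgeR adjusted p = 0.00815), by 2.51 without KO tumor 6 (adjusted p = 0.015) and by 3.70 without WT line 3 (adjusted p = 0.00195). Every KO tumor lay above every KO line, as for 20.5% of genes tested. The knockout value in tumors was 1.46 ± 0.97, with 0.53 without KO tumor 6 and 0.03 with the ductal list as a covariate.

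Gfra3, the partner of artemin (ENSMUSG00000024366.7, too low to test), had 21 counts in the whole data set. All were in KO tumors: 11 in KO tumor 4, 6 in KO tumor 8, 2 in KO tumor 3 and 1 each in KO tumors 6 and 7. It was at 0 in 10 lines and 4 WT tumors, which at their depth allows up to 0.0961 to 0.134 CPM (3 counts). Its highest level was 0.423 CPM, so no difference could be measured.

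Per kilobase of exon, the mean share of Gfra1 in the co-receptor mRNA was lower in tumors than in lines. The shares were not tested. Gfra1 made up 82.9% ± 14 (SD, n = 5) of the summed Gfra1 to Gfra4 CPM per kb in KO lines and 69.1% ± 32.7 (n = 5) in WT lines. In WT tumors it was 52.4% ± 22.3 (n = 4) and in KO tumors 30.5% ± 16.2 (n = 8). Gfra1 was the most abundant of the 4 in 9 of 10 lines, WT line 3 being the exception with 61.8% Gfra2. It also led in 3 of 4 WT tumors. Their range (32.6% to 84.4%) lay within that of WT lines (16.4% to 96.9%). In KO tumors Gfra2 led in 3 of 8 and Gfra4, the co-receptor of persephin, in 3 of 8. Gfra4 rose by 1.73 ± 0.50 in tumors (edgeR adjusted p = 0.00491). The ratio of Ret to Gfra1 per kb had a median of 0.117 in WT lines (0.0696 to 0.338) and 0.162 in KO lines (0.0564 to 0.373). In WT tumors it was 3.29 (1.95 to 4.77) and in KO tumors 2.69 (0.447 to 4.89), with every tumor above every line.

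**Figure D4:**
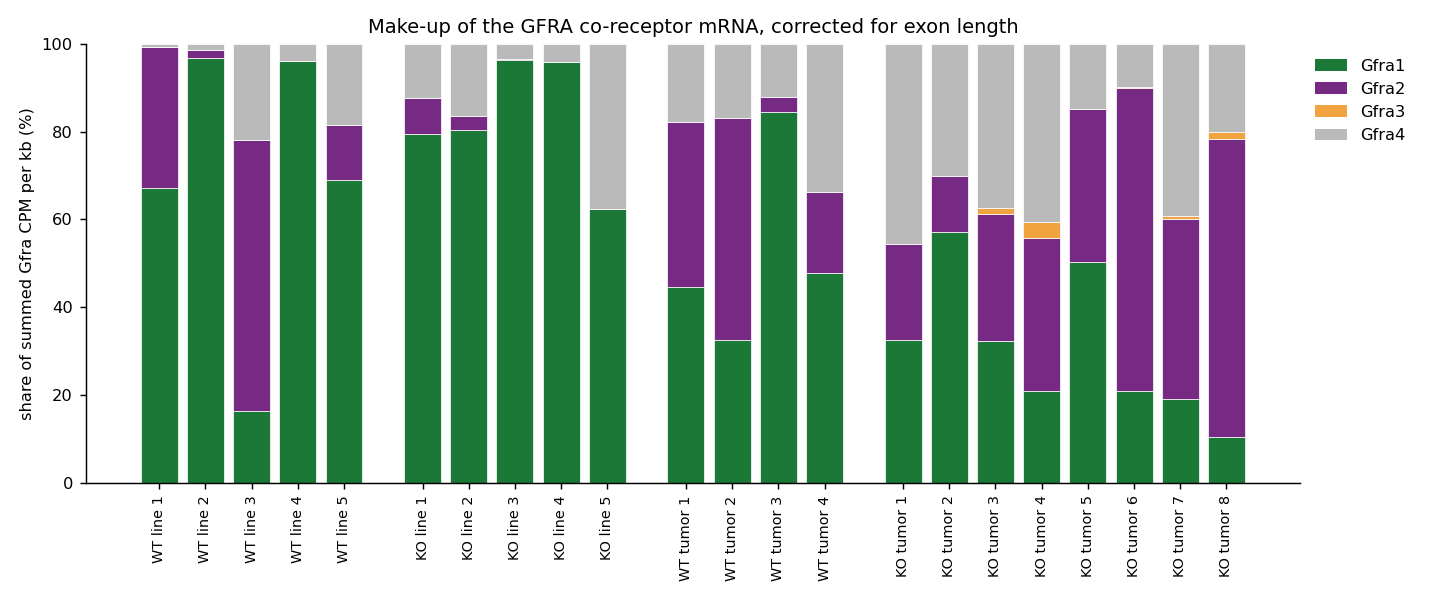
Each bar is 1 library and shows how the summed CPM per kb of Gfra1, Gfra2, Gfra3 and Gfra4 divides in percent. Gfra1 is the largest share in 9 of 10 lines and in 3 of 4 WT tumors. In KO tumors its mean share is 30.5%, beside 38.9% for Gfra2 and 29.7% for Gfra4.

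The 3 ligands were all higher in tumors. Gdnf (ENSMUSG00000022144.3, chr15:7810846-7837575, plus strand), the founding ligand, was nearly absent from lines: 6 of 10 were at 0 and the other 4 held 10 counts in all. WT tumors had 0.105, 1.04, 1.19 and 2.2 CPM, and KO tumors 0.174 to 12.1 with a median of 1.09. All 12 tumors had counts, and WT tumor 1 was the 1 tumor not above the highest line (0.169 CPM). Gdnf rose by 5.26 ± 0.89 (log2, edgeR adjusted p = 3.54e-05) and by 4.62 without KO tumor 6 (adjusted p = 1.02e-05). KO tumor 6 carried 364 of the 699 tumor counts. The knockout value in tumors, 1.05 ± 1.01, was -0.25 without that library, so its sign rested on it.

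Nrtn, neurturin (ENSMUSG00000039481.5, chr17:56751325-56757530, minus strand), was low but counted in every library. WT lines had 0.445, 1.1, 1.65, 1 and 0.389 CPM, and KO lines 0.363, 0.56, 1.99, 0.445 and 1.77. WT tumors had 1.54, 3.1, 3.33 and 8.78 CPM, and KO tumors 1.04 to 7.53 with a median of 3.13. Of the 12 tumors, 10 were above the highest line. Nrtn rose by 2.04 ± 0.42 (log2, edgeR adjusted p = 0.000293). Its knockout values were close to 0, with 0.16 ± 0.59 in lines and -0.17 ± 0.50 in tumors. Over tumors Nrtn varied with the acinar list at r = 0.82 (permutation p = 0.00146, adjusted p = 0.0994) and rho = 0.73 (adjusted p = 0.245), with r = 0.90 without the 2 tumors farthest from the median of that list and r = 0.94 within KO tumors. Without WT tumor 3 the r was 0.91 (permutation test, adjusted p = 0.0164). It was 0.81 without KO tumor 6 (permutation test, adjusted p = 0.0469) and 0.82 without WT tumor 4 (adjusted p = 0.038). Leaving out any other tumor gave no adjusted p under 0.05 for the acinar list. With the macrophage list Nrtn had r = 0.79 (permutation p = 0.00341, adjusted p = 0.0994), rho = 0.73 (adjusted p = 0.245), 0.77 without the 2 farthest tumors and 0.93 within KO tumors. With the fibroblast list it had r = 0.66 (permutation p = 0.02, adjusted p = 0.202), rho = 0.52 (adjusted p = 0.344), 0.21 without the 2 farthest tumors and 0.94 within KO tumors. Without WT tumor 4 the r was 0.95 with the fibroblast list (permutation test, adjusted p = 0.00546) and 0.91 with the macrophage list (adjusted p = 0.0127). Other lists varied with Nrtn too. The smooth muscle list had r = 0.60 (permutation p = 0.04, adjusted p = 0.228), rho = 0.80 (adjusted p = 0.245) and 0.40 within KO tumors. The endothelium list had r = 0.60 (permutation p = 0.0376, adjusted p = 0.228), rho = 0.58 (adjusted p = 0.344) and 0.86 within KO tumors.

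Artn, artemin (ENSMUSG00000028539.14, chr4:117926162-117929763, minus strand), was at 0.593, 0, 0, 0.0771 and 0.13 CPM in WT lines and at 0.835, 0.42, 0.192, 0.49 and 0.532 CPM in KO lines. WT tumors had 0.665, 0.875, 0.449 and 1.62 CPM, and KO tumors 0.383 to 5.59 with a median of 1.11. WT line 1, with 16 of the 21 WT line counts, lay within the range of the KO lines and the other WT lines below it. Artn rose by 2.09 ± 0.58 in tumors (log2, edgeR adjusted p = 0.00336) and by 1.79 without KO tumor 6 (adjusted p = 0.00464). Its knockout values were 1.57 ± 0.88 in lines, 3.16 without WT line 1, and 0.85 ± 0.64 in tumors. The tumor value was 0.23 without KO tumor 6 and 0.03 with the ductal list as a covariate.

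Of the 6 members tested between materials 5 rose, beside 38.5% of all 18662 genes called higher in tumors. The median log2 fold change of the 6 was 2.52, beside 0.15 for all genes. On the scale of CPM per kb, which allows genes to be compared, the order of mean levels in tumors was Ret (4.17), Nrtn (3.85), Gfra2 (2.32), Gfra1 (1.7), Artn (0.583), Gdnf (0.532) and Gfra3 (0.0316). In lines it was Gfra1 (2.46), Nrtn (0.95), Gfra2 (0.389), Ret (0.338), Artn (0.136) and Gdnf (0.0109), with Gfra3 at 0. Among the 12 tumors Gdnf and Artn varied together (r = 0.88), as did Artn and Gfra2 (r = 0.88), and the same library, KO tumor 6, was highest in all 3. Without it the values were 0.61 for Gdnf and Artn and 0.77 for Artn and Gfra2, while Nrtn varied with Gdnf at r = 0.80 (0.26 with it) and with Artn at 0.82 (0.30 with it). Ret varied with the other members at r of -0.26 to 0.44, and of -0.26 to 0.49 without KO tumor 6. These r values between members share libraries and are a description.

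Of the other genes of the family, persephin (Pspn) had 18 counts in lines and 49 in tumors, and Gfral, the GDF15 receptor, had none in any library. Gdf15, whose protein acts through GFRAL and RET, fell by 2.34 on the log2 scale in tumors (SE 0.45, edgeR adjusted p = 0.00013), from 7.19 ± 6.8 CPM in lines to 1.34 ± 0.834. Sdc3, a syndecan that binds GDNF without RET, rose by 2.55 ± 0.29 (edgeR adjusted p = 2.19e-07), and all 12 tumors lay above all 10 lines, as for 12.2% of genes tested. Ncam1, an alternative GDNF receptor with GFRA1, rose by 0.80 ± 0.33 (edgeR adjusted p = 0.0356), a call that 10 of the 22 fits without 1 library lost.

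Signal relays of RET were tested from a list of 20 adaptors, enzymes and ubiquitin ligases. Of 19 tested, 6 rose and 7 fell in tumors, with a median of -0.13. Over all 18662 genes 38.5% were called higher and 27% lower, with a median of 0.15. Of the 4 most abundant, Ptpn11 (phosphatase SHP2) fell by 0.45 on the log2 scale (edgeR adjusted p = 0.000364), Shc1 (adaptor) fell by 0.63 (adjusted p = 0.00422), Cbl (ubiquitin ligase) fell by 0.50 (adjusted p = 0.000428), and Src (kinase) had -0.09 (adjusted p = 0.513; 0.03 with upper quartile factors). Of 9 genes that RET induces in the ureteric bud, 4 rose and 3 fell, with a median of 0.29. Those that rose, named after their values were seen, included Wnt11 (by 5.40 on the log2 scale, edgeR adjusted p = 9.47e-09), Cxcr4 (by 9.41, adjusted p = 1.49e-09) and Myb (by 2.41, adjusted p = 0.000196). Cxcr4 had 0 counts in 8 of the 10 lines, so the size of its fitted change depends on the prior count and is no bound. The ETS factor Etv5 fell by 1.31 (edgeR adjusted p = 8.33e-07) and the receptor Met fell by 0.64 (adjusted p = 0.000424), while the phosphatase Dusp6 had -0.44 (adjusted p = 0.039, 0.1 with RLE factors) and the ETS factor Etv4 had 0.29 (adjusted p = 0.104, 0.0372 with RLE factors). The call of Dusp6 was lost in 9 of the 22 fits without 1 library.

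Of 10 transcription factors known to act on Ret, 6 could be tested and 5 rose, with a median of 1.60. Hoxb5 rose by 3.59 ± 0.55 (edgeR adjusted p = 1.01e-05) and Gata3 by 1.60 ± 0.50 (adjusted p = 0.00785), Rara rose by 0.21 ± 0.08 (adjusted p = 0.0279, lost without any 1 of 7 libraries), and Pax2 had -2.22 ± 1.19 (adjusted p = 0.108). The other 4, Sox10 and Nkx2-1 among them, were too low to test. The neurotrophins and their receptors are another set of signals to neurons, and 7 of 8 tested rose and 1 fell, with a median of 3.73. Ntf5 (neurotrophin 4) rose by 2.04 (edgeR adjusted p = 2.95e-05), Sort1 (sortilin) rose by 0.61 (adjusted p = 0.0407, 0.0959 under the animal replicate block), and Bdnf fell by 0.83 (adjusted p = 0.0173). The call of Sort1 was lost in 15 of the 22 fits without 1 library. In axon guidance, 8 of 21 tested rose and 7 fell, with a median of 0.69, 14 values above 0 and 7 below, beside 38.5% of all genes called higher and 27% lower. The 4 most abundant genes all fell: Epha2 by 1.07, Sema3c by 1.32, Unc5b by 1.11 and Plxna1 by 0.67 on the log2 scale (edgeR adjusted p at most 0.00188).

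Across these lists and the other family genes together, 33 of 67 tested rose and 19 fell between materials, beside 38.5% and 27% of all genes. Between genotypes edgeR called 0 of 56 tested in lines, where 7 had an unadjusted p under 0.05 and DESeq2 and limma-voom called 0 each. Over all 14020 genes tested in lines, 476 higher and 504 lower had an unadjusted p under 0.05. In tumors edgeR called 0 of 67, where 11 had an unadjusted p under 0.05, DESeq2 called 5 and limma-voom 0. Over all 18125 genes tested in tumors, 1512 higher and 1521 lower had an unadjusted p under 0.05, a share close to that of the 11 of 67. DESeq2 called 550 of them higher and 333 lower. Tumors held cell types that lines lacked, with fibroblast, endothelial and macrophage lists at medians of 11.88, 7.47 and 11.13 (log2, tumors minus lines), and their part in the pathway values was not tested.

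**Figure D5:**
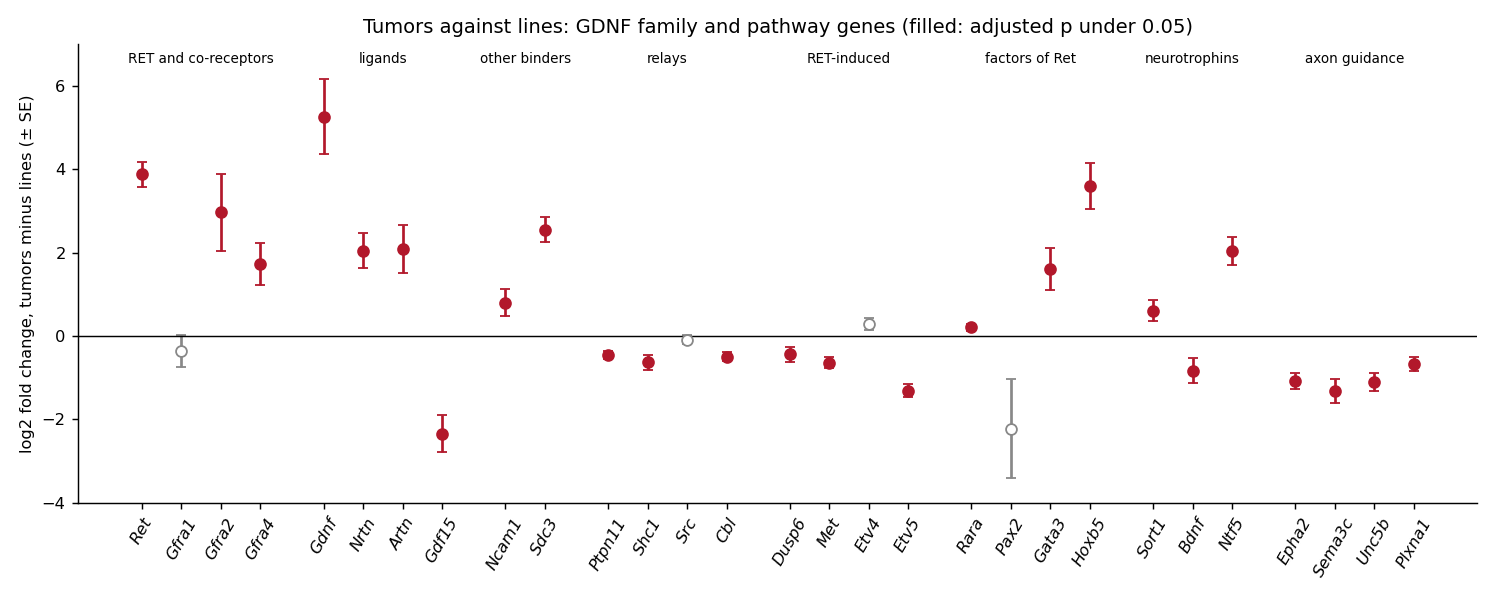
Log2 fold change ± SE, tumors minus lines, for 10 family and binding genes and up to 4 of the most abundant genes of each of 5 lists; filled points have an edgeR adjusted p under 0.05. Ret (3.88) and Gdnf (5.26) lie far above 0 and Gfra1 (-0.36) less than 1 SE from it, and the 4 relays lie below 0, 3 of them filled.

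The genes that followed Ret most closely were ranked by Pearson r of log2(CPM + 0.5). Over the 12 tumors, among 15260 genes, they were Entpd3, a cell surface nucleotidase (r = 0.95), Atg101 of the autophagy start complex (0.95), the proteasome subunits Psmc3 (0.92) and Psmb6 (0.92), Zcrb1 of the minor spliceosome (0.92) and Pitpnc1, a lipid transfer protein (0.92). Entpd3 ran from 3.69 to 38.1 CPM in tumors. Over the 10 lines, among 12619 genes, they were Gm13563 (r = 0.93), Map7d1 (0.93), the sodium channel subunit Scnn1a (0.93), Dpysl2 (0.90), Srl (0.89) and Ppp1r12b (0.88), so the 2 lists of 6 shared no gene. For the other members in tumors the closest were Tulp3 for Gdnf (0.91), Akip1 for Nrtn (0.94), Id4 for Artn (0.95), Vldlr for Gfra1 (0.83) and Magee1 for Gfra2 (0.94). Cnr1, the cannabinoid receptor, was among the first 3 for both Gdnf (0.90) and Artn (0.92). Being the highest of all genes compared, these r values are a description with no test.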

How the data were processed

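mRNA of 22 libraries was sequenced as single-end reads of 75 bases from a stranded kit, per the labels' protocols. The tables deposited by the authors hold raw counts for each gene, from reads trimmed with Trim Galore and aligned to mm10 with STAR after bcl2fastq 1.9.0, per the submitters' processing notes; the annotation and strand setting of the counting are not given in the sources used here. Of 53342 genes 105 had no symbol (0.00944% of counts), and they stayed in the fits. Identifiers were matched to GENCODE vM21 for symbols, positions, exon lengths and 3′ UTRs.

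From these counts, edgeR 4.0.16 (R 4.3.3; TMM factors, its default low-count filter by group, robust quasi-likelihood tests, Benjamini-Hochberg over all genes tested, threshold 0.05) gave log2 fold changes with standard errors. Lines and tumors were fitted apart between genotypes, and all 22 libraries together for tumors minus lines and for the difference of knockout effects. Libraries of 1 group came from different animals by title. Line and tumor of the same animal are the paired samples, and an animal replicate block (limma 3.58.1, consensus correlation 0.287) was an alternative, as were RLE and upper quartile factors, other filters, DESeq2 1.42.0, limma-voom, a non-robust fit, 1 fit for all libraries, marker lists as covariates and leaving out each library. Correlations used 100000 permutations and log2(CPM + 0.5). On simulated data with known changes, the fit of tumors minus lines over 18662 genes recovered 60.4% of genes changed by 1 (log2) and 96% of those changed by 4, with 4 of 127 calls false. These were 48 and 50 changed genes, whereas 65.5% of genes were called in this contrast in the data. The simulated shares are therefore not estimates for that contrast. At a change of 1 the genotype fits recovered fewer: 41.2% in lines (14020 genes), 10.6% in tumors (18125 genes) and 24.5% for the difference (18662 genes). At a change of 4 they recovered 92.2%, 85.7% and 87.3%.

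The 7 genes and all gene lists were chosen with earlier results of these data known. Named are the 7, the rest of the family, the 4 most abundant genes of each pathway list, and the genes most alike in profile (6 for Ret in each material, up to 3 for the others, at a mean of at least 1 CPM). Some genes of this rule are not reported here.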

Additional observations from a re-analysis of the deposited data

Results flagged for a closer look

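Dixon's rule for the highest or lowest sample was applied to CPM in 25 gene and group combinations of 4, 5 or 8 libraries. In 4 of them a library was separated from the rest by more than the 95% critical value. The usual chance rate of about 1 in 20 holds for normally distributed values. Whether CPM is so distributed was not tested, and the rule was not applied on the log2 scale. No excess over chance is therefore drawn from the 4 flags. Of these, 3 were the same library, KO tumor 6. Gdnf reached 12.1 CPM there, against 0.174 to 1.37 CPM in the other 7 KO tumors. Artn reached 5.59 CPM, against 0.383 to 1.77, and Gfra2 reached 44.4 CPM, against 1.25 to 15.4. Without this tumor the means of the KO tumors were 0.974 ± 0.401 CPM for Gdnf, 1.09 ± 0.444 for Artn and 5.58 ± 4.83 for Gfra2 (SD, n = 7). Ret in the same tumor was 24.7 CPM, inside the range of the others, and Gfra1 was 20.7 CPM, the highest of the KO tumors. The other library was WT line 1, in which Artn stood at 0.593 CPM, against 0 to 0.13 CPM in the other 4 WT lines. Without it the WT line mean was 0.0516 ± 0.0634 CPM (n = 4).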

How the results depend on the processing

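Ret kept its direction under each alternative run: 1.36 to 1.46 (log2, KO minus WT) in lines, -1.32 to -1.01 in tumors, -2.67 to -2.58 for the difference, and 3.65 to 3.99 between materials, where its adjusted p was at most 3.94e-07. Without single libraries the ranges were 1.16 to 1.56, -1.54 to -1.08, -2.92 to -2.35 and 3.79 to 4.03. The genotype values of Ret are those that chose it, so their ranges describe the processing only and are no test of the signs. Under the animal replicate block Ret had 3.65 ± 0.43 (limma, adjusted p = 2.73e-07) between materials; it ended the call of Sort1 and of no other named gene. The 5 members called between materials stayed called under every alternative run, except that Artn was removed by the filter on mean CPM. Genes called in lines were 2, with 1 under upper quartile factors, 46 under DESeq2, 5 in 1 fit of all libraries and 0 to 2 without single libraries. In tumors 2 became 883 under DESeq2, 4 under limma-voom, 40 in 1 fit of all libraries, 4 with the ductal covariate and 2 to 82 without single libraries (leaving out KO tumor 2 gave 82, WT tumor 2 gave 57, WT tumor 4 gave 6 and KO tumor 8 gave 4). For the difference of effects 0 became 67 under DESeq2 and 0 to 1 without single libraries; between materials 12227 became 9543 to 14728, and 11833 to 12406 without single libraries. Upper quartile factors moved the median of all genes between materials from 0.15 to 0.27. Of 91 correlations with marker lists, 18 had an unadjusted permutation p under 0.05 and 0 an adjusted one (smallest 0.0994), and 0 to 6 did without single libraries (leaving out KO tumor 6 gave 6, WT tumor 4 gave 5, and KO tumor 5, KO tumor 8 and WT tumor 3 gave 1 each). Gdnf in tumors (KO minus WT) was -0.25 without KO tumor 6 and -0.38 with the ductal covariate. The cause of these shifts was not tested. Low counts limit Gfra3, Gdnf in lines and Artn in WT lines.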
